A study of Mus musculus with 15 samples.

Results

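Genes for 9 hormones and other signalling proteins that the liver secretes were followed across 15 RNA-seq libraries of mouse liver. They were chosen by name, with earlier results of these data known: Fgf21, Gdf15, Igfbp1, Igfbp2, Igf1, Angptl4, Angptl8, Inhbe and Lect2. The deposited table lists 16330 genes, and 8 of the 9 hormone genes were found in it under these symbols. Angptl8 was read from the row named Gm6484, which RefSeq gives as its older symbol. All 9 passed the filter on low values, 10 normalized counts or more in at least 3 libraries, as did 13570 genes in all. A normalized count is the number of reads assigned to a gene, scaled by a factor for its library so that libraries of different depth can be compared.

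The livers carried either LbNOX, an enzyme of bacterial origin that oxidizes NADH to NAD+ and forms water, or the control protein luciferase. Mice were gavaged with water or with ethanol 6 h before the liver was taken. The 4 groups were luciferase with water (libraries M1 to M5, n = 5), LbNOX with water (M6 to M9, n = 4), luciferase with ethanol (M10 to M12, n = 3) and LbNOX with ethanol (M13 to M15, n = 3). The comparisons ask how ethanol alters the liver and whether that response differs where LbNOX is present. The animals therefore all carried a construct and all received a gavage. The label field that holds luciferase or LbNOX is called genotype, and how the constructs were delivered, the cells that expressed them, and the strain, sex and age of the mice are not given in the sources used here. The design text speaks of wild-type or ChREBP animals, whereas the sample titles and the header of the table name luciferase and LbNOX, which were followed. Nothing in the labels says that the libraries of a group are from different animals, and the spread that p-values rest on may therefore be technical. Depth was 10610038 to 23714943 reads per library.

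The liver is an endocrine organ as well as a metabolic one. FGF21 is a hormone of fasting, protein shortage, sugar and alcohol intake that acts through fibroblast growth factor receptors joined to the co-receptor beta-klotho, and it lowers the preference for sweets and alcohol. Its gene is a known target of the sugar-responsive factor ChREBP, of PPAR-alpha and of the stress factor ATF4. IGFBP1 binds insulin-like growth factors in blood, and its gene is held down by insulin and raised by glucocorticoids, stress and fasting. ANGPTL8 is made after feeding and takes part in the inhibition of lipoprotein lipase, the enzyme that releases fatty acids from circulating triglyceride.

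Fgf21, Igfbp1 and Angptl8 rose in luciferase livers after ethanol, and the other 6 hormone genes did not pass the test there. The stretches of DNA just before the start sites of these 3 genes are shown because these genes rose, with that of Inhbe, which holds the same short motif as Fgf21 and Angptl8 but did not pass. Sequences are from RefSeq on GRCm38.p6, read 5′ to 3′ on the strand of the gene. Those of Fgf21 and Angptl8 run from 250 bases to 1 base before the start, and that of Igfbp1 from 250 to 51. Capitals mark TGATGNAA, the C/EBP-ATF response element bound by stress factors such as ATF4 (it reads TTGCATCA on the other strand), CACGTG, the E-box core that ChREBP binds as a pair, and CAAAACA, a FOXO element known from insulin response regions.
Fgf21, chr7:45615491-45615740, minus strand: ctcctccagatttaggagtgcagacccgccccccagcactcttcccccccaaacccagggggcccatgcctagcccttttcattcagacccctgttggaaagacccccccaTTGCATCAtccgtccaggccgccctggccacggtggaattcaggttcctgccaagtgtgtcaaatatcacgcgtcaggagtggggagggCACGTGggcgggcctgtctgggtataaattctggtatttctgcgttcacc
Angptl8, chr9:21835260-21835509, plus strand: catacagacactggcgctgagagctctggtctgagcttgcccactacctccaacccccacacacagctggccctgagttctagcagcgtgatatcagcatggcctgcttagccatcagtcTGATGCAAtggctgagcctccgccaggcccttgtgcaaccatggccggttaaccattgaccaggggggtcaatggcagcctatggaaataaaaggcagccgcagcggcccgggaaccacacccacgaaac
Igfbp1, chr11:7197537-7197736, plus strand: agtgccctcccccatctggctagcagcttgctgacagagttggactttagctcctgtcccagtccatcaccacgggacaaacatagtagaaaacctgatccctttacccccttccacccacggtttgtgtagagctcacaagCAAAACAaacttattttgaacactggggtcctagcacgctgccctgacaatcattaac
Inhbe, chr10:127352011-127352040, minus strand: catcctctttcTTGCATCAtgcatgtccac

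Upstream sequences of 250 bases were matched for 8 of the 9 hormone genes, and Angptl4 was not matched. The C/EBP-ATF element, searched on both strands, was found in 3 of the 8, at 139 to 132 bases before the start in Fgf21, 130 to 123 in Angptl8 and 181 to 174 in Inhbe. The same element was present in 3.45% of 32851 mouse promoter windows of the same length. CACGTG was found for Fgf21 (50 to 45 bases before the start), Gdf15 and Igfbp2, against 6.02% of all windows, and CAAAACA for Igfbp1 (108 to 102 bases before the start), against 5.56%. Gdf15 and Igfbp2 each had 2 windows, for different start sites, and in Gdf15 CACGTG lay only in window 2. A gene was counted if any of its windows matched, whereas the shares are of single windows. Other motifs were searched in the same way. TGACGTCA, the cyclic AMP response element, was found in 0 of the 8 (1.55% of all windows). AGGTCA, a nuclear receptor half-site, was found for Gdf15 and Igf1 (14% of all windows). AGAACA, a glucocorticoid receptor half-site, was found for Igfbp2 (16.1%), and TATAAA, the TATA box, for Fgf21 (12.4%). These matches describe letters in a window and show no binding. The Inhbe window lies within the first exon of the GENCODE gene model, so only the element and its flanks are printed for it.

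Fgf21 was high in all 3 luciferase ethanol libraries and in no other. The gene lies at chr7:45613886-45615490 on the minus strand (GENCODE vM21, GRCm38). Its normalized counts after water with luciferase were 84.5, 54.5, 70.6, 84.5 and 68.0 in M1 to M5. With luciferase and ethanol they were 254, 145 and 439 in M10, M11 and M12. The lowest ethanol library was thus above the highest water library, and the groups did not overlap. The means were 72.4 ± 12.6 (SD, n = 5) and 279 ± 149 (n = 3), a ratio of 3.86. The log2 fold change was 1.81 (SE 0.34, 95% interval 1.08 to 2.54, adjusted p = 0.00471, limma with Benjamini-Hochberg adjustment over all genes tested). Fold changes are on the log2(normalized count + 1) scale throughout, and a gene is said to rise or fall where its adjusted p is below 0.05.

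In LbNOX livers Fgf21 showed no such rise. Its normalized counts were 92.8, 55.5, 74.7 and 45.4 after water (M6 to M9) and 37.4, 73.8 and 39.9 after ethanol (M13 to M15). Those ranges overlap, and 2 of the 3 ethanol libraries lie below every water library of either construct. The means were 67.1 ± 21.0 (n = 4) and 50.3 ± 20.3 (n = 3), with a log2 fold change of −0.42 (SE 0.36, 95% interval −1.19 to 0.34, adjusted p = 0.670). Between the ethanol groups, Fgf21 was lower with LbNOX (log2 fold change −2.37, SE 0.38, 95% interval −3.19 to −1.56, adjusted p = 0.00296), a ratio of means of 0.180. The effect of ethanol itself differed between the constructs by −2.23 (SE 0.49, 95% interval −3.29 to −1.17, adjusted p = 0.0382). Of all genes tested, 1.67% passed that test of the difference, and Fgf21 was the only hormone gene among them. This last call was lost in 10 omissions of a single library, M1, M2, M3, M5, M6, M7, M10, M12, M13 or M15, with an adjusted p of up to 0.111 and a difference between −2.63 and −1.83.

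Ordered by mean, Fgf21 was lowest with LbNOX and ethanol, then LbNOX and water, luciferase and water, and luciferase and ethanol. The ranges of the lowest 3 groups overlapped, although M13 and M15 of LbNOX and ethanol (37.4 and 39.9) lay below every water library. LbNOX against luciferase after water gave −0.14 (SE 0.31, limma adjusted p = 0.9996). LbNOX with ethanol was not tested against luciferase with water. The spread within luciferase ethanol libraries was wide, with M12 highest and M11 lowest. Between 27 and 352 reads per library lay behind the Fgf21 values, so counting error adds to the spread at the low end.

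**Figure D1:**
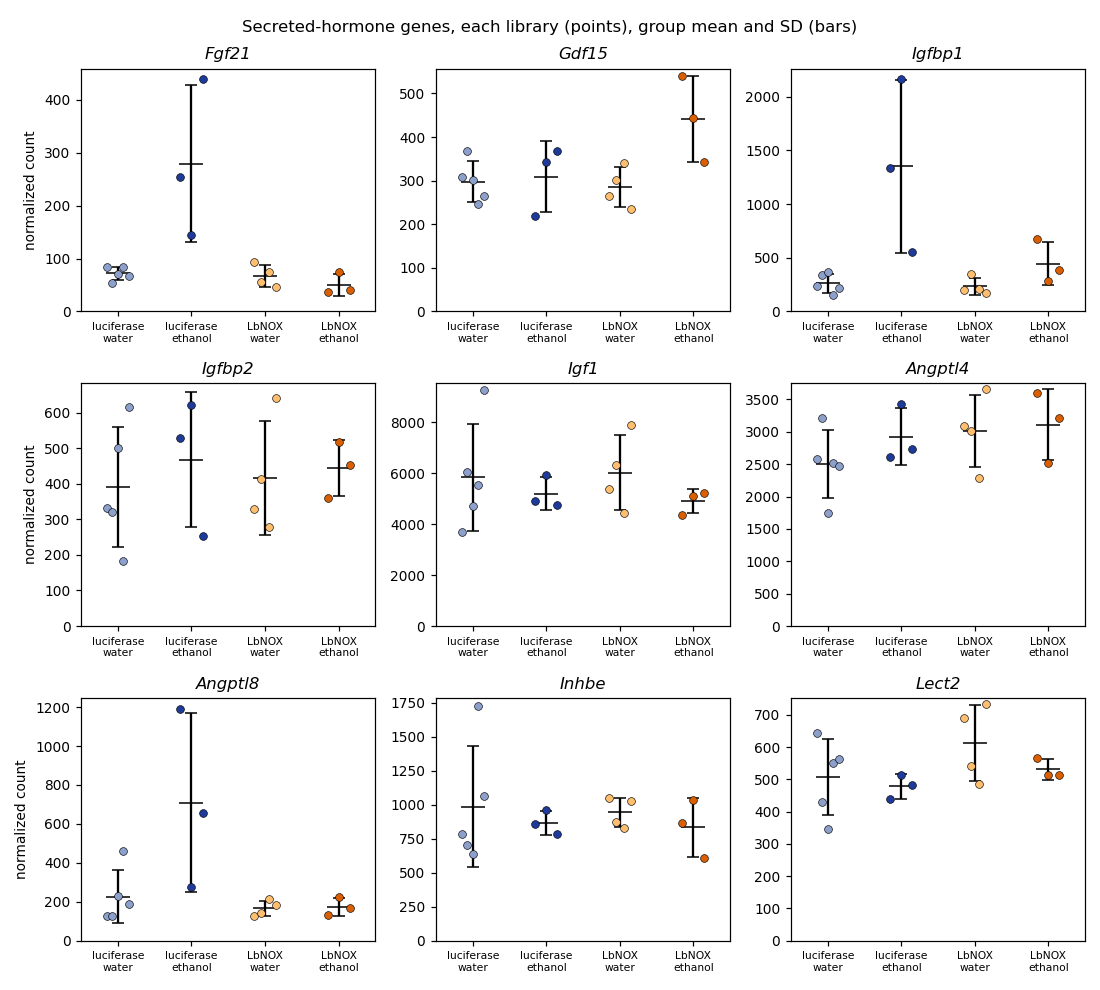
Normalized counts of the 9 hormone genes in each of the 15 libraries (points), with the group mean and SD (bars), linear axes from 0. Fgf21 runs from 145 to 439 in luciferase ethanol libraries and from 37.4 to 92.8 in all others, while Igf1, Inhbe and Lect2 overlap in all groups.

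Igfbp1, at chr11:7197782-7202546 on the plus strand, was the hormone gene with the largest rise. After water its normalized counts were 234, 339, 366, 155 and 220 with luciferase and 199, 348, 210 and 174 with LbNOX. After ethanol they were 1335, 2162 and 557 with luciferase and 673, 286 and 382 with LbNOX. All 3 luciferase ethanol libraries lay above every water library, whereas M13 of the LbNOX ethanol group lay above M12 and the 2 ethanol groups overlapped. In luciferase livers the mean went from 263 ± 87.6 (n = 5) to 1351 ± 803 (n = 3), a ratio of 5.14 and a log2 fold change of 2.22 (SE 0.41, 95% interval 1.35 to 3.09, adjusted p = 0.00392). In LbNOX livers the mean was 233 ± 78.6 after water and 447 ± 201.2 after ethanol, and the change of 0.90 did not pass (SE 0.43, 95% interval −0.01 to 1.81, adjusted p = 0.439).

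The difference between constructs was less settled for Igfbp1 than for Fgf21. After ethanol the log2 difference between LbNOX and luciferase was −1.48 (SE 0.46, adjusted p = 0.0722), and the difference of the ethanol effects was −1.32 (SE 0.59, adjusted p = 0.314). The first of these passed without M12, the lowest of the 3 luciferase ethanol libraries (−2.02, adjusted p = 0.0252), and with DESeq2 on recovered reads (adjusted p = 0.00796).

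Angptl8, at chr9:21835510-21837347 on the plus strand, rose in luciferase livers too, less evenly. Its normalized counts after water were 128, 128, 228, 460 and 189 with luciferase and 126, 145, 212 and 183 with LbNOX. After ethanol they were 1193, 278 and 656 with luciferase and 130, 222 and 167 with LbNOX. The groups overlapped in luciferase livers, since M4 after water (460) lay above M11 after ethanol (278), and did not overlap between the 2 ethanol groups. The luciferase means were 226 ± 137 (n = 5) and 709 ± 460 (n = 3), a ratio of 3.13 and a log2 fold change of 1.58 (SE 0.45, 95% interval 0.63 to 2.53, adjusted p = 0.0433). Left out singly, only M4, M8 and M11 kept this call. It was lost without M1, M2, M3, M5, M6, M7, M9, M10, M12, M13, M14 or M15 (adjusted p up to 0.246, log2 fold change 1.09 to 2.14 over all 15 omissions).

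In LbNOX livers Angptl8 averaged 166 ± 38.6 after water (n = 4) and 173 ± 46.4 after ethanol (n = 3), a change of 0.05 (SE 0.47, 95% interval −0.94 to 1.05, adjusted p = 0.973). After ethanol it was lower with LbNOX than with luciferase (−1.83, SE 0.50, adjusted p = 0.0437, ratio of means 0.244). That call was lost without M5, M6, M7, M9, M10, M12, M13, M14 or M15 (adjusted p up to 0.187). The difference of the ethanol effects was −1.53 (SE 0.64, adjusted p = 0.281). Angptl8 sits inside Dock6, a gene on the opposite strand, and whether the counting used strand is not given in the sources used here. Dock6 averaged 76.4 ± 28.9 and 85.4 ± 74.9 normalized counts in luciferase livers after water and ethanol, was listed at 0 in some libraries and passed in no comparison.

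In luciferase livers 3 of the 9 hormone genes rose and 0 fell, while 7.75% of all 13570 genes tested passed in either direction. Because the 9 were chosen with earlier results of these data known, their share is not evidence about the set. The median log2 fold change of the 9 was 0.24, against 0.01 for all genes tested. Groups that did not overlap were found for 2 hormone genes, Fgf21 and Igfbp1, and for 14.7% of all genes. In LbNOX livers 0 of the 9 passed with limma, where the background was 0.00737%, and 0 with edgeR or DESeq2, which called 1 and 282 genes in all. There 1 of the 9 had an unadjusted p below 0.05 with limma, as did 1571 genes in all. Between constructs after water 0 passed with limma, where the background was 0%, and 0 with edgeR or DESeq2, which called 0 and 18 genes in all. None of the 9 had an unadjusted p below 0.05 there with limma, as 440 genes in all did. After ethanol 2 were lower with LbNOX, Fgf21 and Angptl8, with a background of 6.06%. The groups did not overlap for these same 2 genes, as for 29.6% of all genes. The ethanol comparisons of each construct share no library, but the comparison of constructs after ethanol uses the same M10 to M12 as the luciferase comparison.

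**Figure D2:**
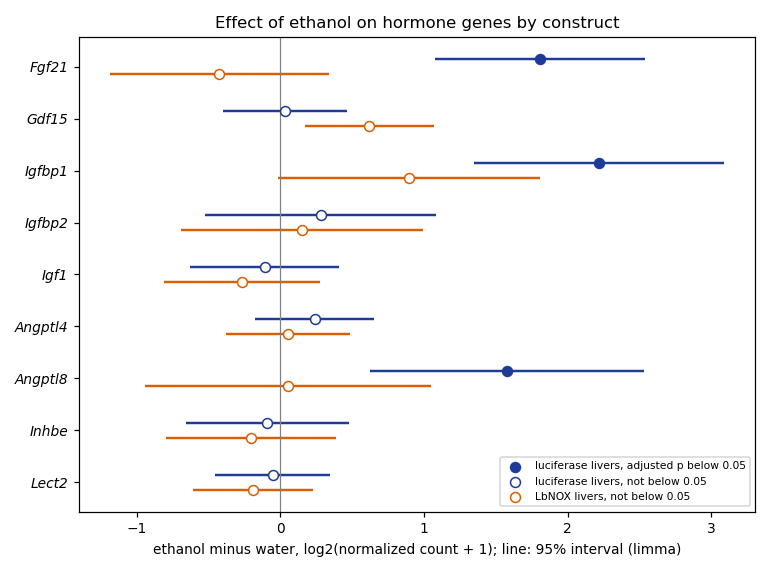
Log2 fold change of ethanol against water for each hormone gene in luciferase (blue) and LbNOX (orange) livers, with limma 95% intervals. Filled points have an adjusted p below 0.05, which in luciferase livers are Fgf21 (1.81), Igfbp1 (2.22) and Angptl8 (1.58), and no LbNOX point is filled.

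The 3 genes that rose were not ordered alike among the luciferase ethanol libraries. Relative to the luciferase water mean, Fgf21 was at 3.51, 2.00 and 6.06 times in M10, M11 and M12. Angptl8 was at 5.27, 1.23 and 2.90 times, and Igfbp1 at 5.08, 8.23 and 2.12 times. Library M11 was thus the lowest of the 3 for Fgf21 and Angptl8 and the highest for Igfbp1. Over all 15 libraries Fgf21 correlated with Angptl8 at r = 0.80 and with Igfbp1 at r = 0.46, given as a description, since the libraries share 4 group means.

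**Figure D3:**
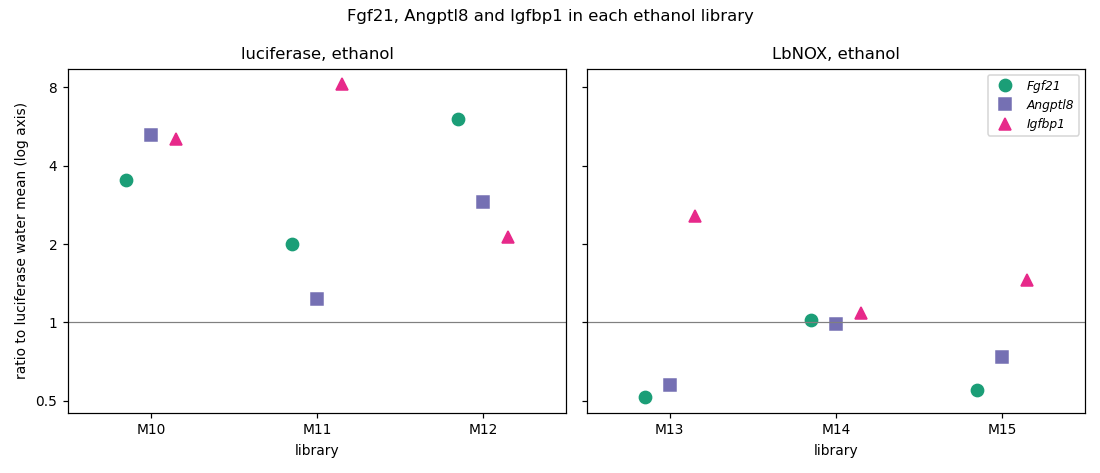
Fgf21, Angptl8 and Igfbp1 in each ethanol library as a ratio to the luciferase water mean (log axis, grey line at 1). In M11 Igfbp1 stands at 8.23 while Angptl8 stands at 1.23, and in the LbNOX libraries Fgf21 and Angptl8 lie between 0.516 and 1.02.

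Gdf15, at chr8:70629393-70632456 on the minus strand, encodes a stress-induced hormone that lowers appetite through a receptor of the hindbrain. Unlike the 3 genes above, it was highest with LbNOX and ethanol. Its normalized counts were 540, 445 and 342 there, against 265, 302, 340 and 234 after water with LbNOX. The LbNOX groups did not overlap, by a narrow margin between M15 (342) and M8 (340). Its means were 298 ± 46.1 (n = 5) and 309.5 ± 80.5 (n = 3) with luciferase after water and ethanol. With LbNOX they were 285 ± 46.0 (n = 4) and 442 ± 98.8 (n = 3), a log2 fold change of 0.62 that did not pass (SE 0.21, 95% interval 0.17 to 1.07, unadjusted p = 0.0105, adjusted p = 0.276). For comparison, 10.9% of genes had LbNOX groups that did not overlap. The difference of the ethanol effects was 0.59 (SE 0.29, adjusted p = 0.365).

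The insulin-like growth factor members Igf1 and Igfbp2 did not pass in any comparison. Igf1, the growth-promoting hormone that growth hormone induces in liver, lies at chr10:87858265-87937042 on the plus strand. In luciferase livers its normalized counts were 3704, 6032, 4724, 5536 and 9258 after water and 4917, 5935 and 4754 after ethanol, so that the ethanol values lay within the water range. The log2 fold change was −0.11 (95% interval −0.63 to 0.41), and in LbNOX livers −0.27 (−0.81 to 0.28). Igfbp2, a second binder of insulin-like growth factors, lies at chr1:72824503-72852474 on the plus strand. It ranged from 184 to 617 in luciferase water libraries and from 254 to 622 after ethanol, a change of 0.28 (95% interval −0.53 to 1.09). The LbNOX change of Igfbp2 was 0.15 (−0.69 to 1.00). Igfbp1 and Igfbp2 thus differed in outcome within luciferase livers, although the difference between those 2 genes was not tested.

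Angptl4, Inhbe and Lect2 also passed in no comparison. Angptl4, which inhibits lipoprotein lipase during fasting, lies at chr17:33773750-33781830 on the minus strand and averaged 2504 ± 520 and 2922 ± 439 in luciferase livers after water and ethanol. Its change was 0.24 (95% interval −0.17 to 0.65), and in LbNOX livers 0.05 (−0.38 to 0.48), where the means were 3010 ± 559 and 3110 ± 544. Inhbe, at chr10:127348857-127354411 on the minus strand, encodes the liver-made subunit of activin E, a signal to fat tissue. It averaged 985 ± 445 after water and 866 ± 86.6 after ethanol with luciferase, where M4 alone reached 1727, a change of −0.09 (−0.66 to 0.48). Its means with LbNOX were 944 ± 109 and 835 ± 218 (−0.20, −0.80 to 0.39).

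Lect2, at chr13:56542464-56548502 on the minus strand, encodes a protein made by hepatocytes that attracts leukocytes. It averaged 506 ± 118 and 478 ± 37.7 with luciferase after water and ethanol, a change of −0.05 (95% interval −0.45 to 0.35). With LbNOX the means were 613 ± 118 and 531 ± 31.7 (−0.19, −0.61 to 0.23). Over the 6 genes that did not pass, the highest upper bound of a luciferase interval was 1.09 on the log2 scale (Igfbp2), so a rise as large as the estimate for Fgf21 (1.81) lies outside each of them. Between constructs after water, the changes of all 9 hormone genes lay between −0.30 (Angptl8) and 0.29 (Lect2), and the smallest unadjusted p was 0.115 (Lect2).

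Markers of other liver cell types were found in every library, and those of pancreatic acinar cells stood out in some. Hepatocyte markers were high throughout, and 8 of 8 were found, with a summed level of 681300 to 822800 and 707000 to 874600 normalized counts in luciferase livers after water and ethanol, and 503900 to 943700 and 585800 to 725100 in LbNOX livers. Pancreatic acinar markers (7 of 8 listed were found, none of them at 0 throughout a group) summed to 8042 in M8 and 1047 in M3, and to 38.0 to 281 in the other libraries. The pancreas makes FGF21 as well, and Fgf21 was 74.7 in M8 and 70.6 in M3, within the range of the other water libraries. Without M3 and M8 Fgf21 still rose in luciferase livers and was still lower with LbNOX after ethanol. The difference of its ethanol effects was then −2.16 (adjusted p = 0.0550). Angptl8 no longer passed without them, with an adjusted p of 0.0692 in luciferase livers and 0.0517 between constructs after ethanol.

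Other markers moved less, and their part in the results was not tested. Kupffer cell markers (7 of 7) summed to 635 to 1580 and 507 to 714 in luciferase livers after water and ethanol, and to 650 to 1267 in LbNOX ethanol livers. Stellate cell markers (6 of 6) summed to 1759 to 2503 with luciferase and water, 2488 to 2660 with luciferase and ethanol, and 1936 to 2277 with LbNOX and ethanol. Endothelial markers (6 of 6) ran from 1596 to 3148 over all libraries and adipocyte markers (5 of 6) from 683 to 1944. Endothelial sums were highest in M8, M3 and M15 (3148, 2906 and 2851, at most 2367 elsewhere). Kupffer cell sums were highest in the same libraries (1287, 1580 and 1267, at most 798 elsewhere), while stellate cell sums were not. M15, of the LbNOX ethanol group, was left out singly but not together with M3 and M8. Neutrophil markers (5 of 6) reached 664 in M13 and at most 313 elsewhere, and cholangiocyte markers (4 of 5) were highest in M15, M3 and M8. In bulk liver RNA fewer cells of a type and less RNA per cell cannot be told apart.

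Receptors and partners of the hormones were examined as lists, each given by how many of its genes passed. The lists were also chosen with earlier results of these data known, so a share above that of all genes is not evidence about a list. Among 7 tested genes of FGF21 and GDF15 reception, 1 rose and 1 fell in luciferase livers after ethanol, where 7.75% of all genes passed (median −0.08). Fgfr3, a fibroblast growth factor receptor, rose from 558 ± 89.6 to 1009 ± 292 (0.82, SE 0.19, adjusted p = 0.0140). Fgfr2, another such receptor, fell from 375 ± 38.1 to 188 ± 61.2 (−1.05, SE 0.23, adjusted p = 0.0109). The co-receptor gene Klb and the receptors Fgfr1 and Fgfr4 were among those that did not pass. The Fgfr3 call was lost without M10 or M12 and the Fgfr2 call without M11. After ethanol Fgfr3 was lower with LbNOX (−0.74, adjusted p = 0.0476), a call that held only without M3, M5, M9 or M11 among the 15 omissions.

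Of 16 tested genes of the growth hormone and insulin-like growth factor axis, 1 rose and 3 fell in luciferase livers, against 7.75% of all genes (median −0.03). Stat5b, a transcription factor through which growth hormone acts, rose from 972 ± 84.7 to 1471 ± 262 (0.59, adjusted p = 0.00649). Socs2 and Cish, feedback inhibitors that STAT5 induces, fell by 1.73 (adjusted p = 0.0127) and by 1.51 (adjusted p = 0.0395) on the log2 scale, from 154 ± 88.8 to 43.4 ± 15.6 and from 342 ± 156 to 111 ± 25.6. Igfals, which holds IGF1 in a large complex in blood, fell from 133 ± 25.2 to 61.1 ± 16.3 (−1.13, adjusted p = 0.0232). Igf1 itself, as above, did not pass. Stat5b, Socs2 and Igfals lost their calls without M10, and Cish without M1, M2, M5, M6, M10, M11 or M12. With LbNOX the ethanol changes of Stat5b, Socs2, Cish and Igfals were 0.20, 0.08, −1.06 and −0.38, and none passed. Their ethanol effects did not pass as different between constructs (limma adjusted p = 0.294, 0.1315, 0.759 and 0.408). Igfals was already lower with LbNOX after water, at 76.3 ± 24.8 (−0.84, limma unadjusted p = 0.00508, adjusted p = 0.9996), and averaged 56.3 ± 10.5 after ethanol. After ethanol 1 of the 16 was lower with LbNOX, near the 6.06% of all genes that passed there. This was Igfbp3, the main carrier of IGF1 in blood (153 ± 17.4 with luciferase and 59.2 ± 6.73 with LbNOX, −1.36, adjusted p = 0.0400), named after its values were seen. That call was lost without M6, M7, M10, M11, M12, M13, M14 or M15.

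Of the 14 tested genes of the angiopoietin-like and lipase list, 0 passed in luciferase livers with limma, while edgeR and DESeq2 each called 1, and 4 had an unadjusted p below 0.05, as did 2859 of all 13570 genes (median 0.25). Lipg, endothelial lipase, had the smallest p of the list over this test and that of the difference of ethanol effects. It averaged 411 ± 167 and 662 ± 91.4 with luciferase after water and ethanol (0.80, SE 0.36, adjusted p = 0.222) and 524 ± 149 and 256 ± 101 with LbNOX (−1.05, SE 0.38, adjusted p = 0.307). Its ethanol effects differed by −1.85 (SE 0.53, adjusted p = 0.0986). After ethanol Angptl6, a member of the angiopoietin-like family, was lower with LbNOX (73.0 ± 16.1 against 174 ± 6.86, −1.26, adjusted p = 0.0272), a gene named after its values were seen. It lost that call without M10, M11, M12, M13 or M15. Of the 2 tested LECT2 receptor genes 0 passed with any of the 3 tools, and 0 had an unadjusted p below 0.05. The closer of them, Met, the hepatocyte growth factor receptor, changed by −0.24 (adjusted p = 0.424).

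The activin and inhibin list had 3 rises and 1 fall among 13 tested genes in luciferase livers, against 7.75% of all genes (median 0.23). Inhba, the subunit of activin A and a relative of Inhbe, had 1680, 668 and 966 normalized counts in M10, M11 and M12, against 164 to 362 after water. Every luciferase ethanol library lay above every water library. The means were 1105 ± 520 (n = 3) and 273 ± 74.8 (n = 5), which is 1.96 higher on the log2 scale (SE 0.31, adjusted p = 0.00140). With LbNOX it averaged 166 ± 42.9 after water and 205 ± 49.3 after ethanol. It was already below luciferase after water (−0.70, limma unadjusted p = 0.0262, adjusted p = 0.9996), a difference that did not pass. After ethanol it was lower with LbNOX than with luciferase (log2 fold change −2.35, SE 0.34, adjusted p = 0.00137). Both calls held in each of the 15 omissions of a library, and the difference of the ethanol effects was −1.65 (adjusted p = 0.0817). Fstl3, a secreted activin inhibitor, rose from 25.1 ± 13.4 to 78.1 ± 44.8 (1.64, adjusted p = 0.0374), and Tgfbr3, an inhibin co-receptor, from 122 ± 16.8 to 234 ± 31.2 (0.93, adjusted p = 0.00943). Smad2, which carries the activin signal, fell from 447 ± 84.2 to 275 ± 50.9 (−0.69, adjusted p = 0.0435). Calls were lost without M1, M3, M7, M10 or M12 for Fstl3 (adjusted p = 0.0374 with all libraries), without M12 for Tgfbr3, and without any library but M5, M8 and M9 for Smad2.

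Among 25 other secreted liver factors, 2 rose and 1 fell in luciferase livers, against 7.75% of all genes (median 0.13). Nrg4, a ligand of ERBB receptors best known from brown fat, had 1351, 1483 and 1228 normalized counts in M10 to M12 against 464 to 653 after water, with no overlap. Its mean rose from 572 ± 74.6 to 1354 ± 128 (1.25, SE 0.19, adjusted p = 0.00107), and with LbNOX it was 594 ± 128 and 591 ± 155. The ethanol effect on Nrg4 differed between constructs (−1.27, SE 0.27, adjusted p = 0.0339). Leaving out M1, M2, M6, M7, M9, M10, M11, M12, M14 or M15 lost that last call. Smoc1, a secreted matrix protein also described as a glucose-lowering hepatokine, rose from 2147 ± 287 to 4180 ± 388 (0.97, adjusted p = 0.00393), and with LbNOX it was lower after ethanol than with luciferase (−0.98, adjusted p = 0.0104). The Smoc1 difference between constructs was lost without M10 or M15. Manf, an endoplasmic reticulum stress protein that is also secreted, fell from 1731 ± 234 to 987 ± 109 (−0.81, adjusted p = 0.00415). With LbNOX it averaged 1246 ± 103 after water, already below luciferase (−0.47, limma unadjusted p = 0.00416, adjusted p = 0.9996), and 1355 ± 334 after ethanol. The difference of its ethanol effects was 0.90 (limma adjusted p = 0.0518), and it passed with edgeR and DESeq2.

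Transcription factors and cofactors known to act on the hormone genes had 6 rises and 1 fall among 24 tested in luciferase livers, against 7.75% of all genes (median 0.22). Klf10, a factor induced by sugar in liver, rose from 646 ± 170 to 2883 ± 811 (2.16, SE 0.25, adjusted p = 0.000146). Trib3, a pseudokinase induced by ATF4, rose from 113 ± 11.5 to 451 ± 172 (1.91, SE 0.23, adjusted p = 0.000188). Mlxipl, which encodes ChREBP, rose from 2199 ± 733 to 5916 ± 731 (1.48, SE 0.28, adjusted p = 0.00448), and Srebf1, the insulin-responsive regulator of fat synthesis, from 2036 ± 313 to 3966 ± 1690 (0.89, SE 0.19, adjusted p = 0.0110). The other rises, of Foxo1 (0.64, adjusted p = 0.0206), which acts on Igfbp1, and Klf15 (0.91, adjusted p = 0.0374), were named after their values were seen, as was the fall. That was Atf3, a stress factor listed at 0 in 2 of the 3 luciferase ethanol libraries, at 23.7 in the third and at 46.4 to 134 after water (−4.70, adjusted p = 0.0313). Foxo1 lost its call without M10 or M11, Klf15 without M3, M4, M5, M10, M11 or M12, and Atf3 without M1, M3, M10 or M11. The Klf15 call was also lost with plain variances, and that of Atf3 with edgeR and without both M3 and M8.

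The ethanol effect on Klf10 and Trib3 differed between the constructs, by −2.32 and by −2.09 (adjusted p = 0.00810 for each), and both calls held in each of the 15 omissions of a library. Srebf1 passed that test narrowly (−1.19, adjusted p = 0.0486) and lost it without any library but M4 and M11, and Mlxipl did not pass (−1.43, adjusted p = 0.0937). Between constructs after ethanol, 4 of 24 regulators were lower with LbNOX and 1 was higher, against 6.06% of all genes. Those lower were Klf10 (−2.18, limma adjusted p = 0.00066), Trib3 (−1.755, 0.00136), Mlxipl (−1.22, 0.0327) and Srebf1 (−1.15, 0.00724). Atf3 was higher (4.97, limma adjusted p = 0.0476). Mlxipl lost this call without M10, M11, M12, M13 or M15, and Atf3 kept it in 3 of the 15 omissions. In LbNOX livers the means were 693 ± 79.2 and 638 ± 181 for Klf10 and 143 ± 15.4 and 126 ± 20.9 for Trib3, after water and ethanol. In the luciferase ethanol libraries M10, M11 and M12, Klf10 was 3637, 2025 and 2989 and Trib3 was 564, 253 and 537. M11 was the lowest for both, as for Fgf21 and Angptl8. It was also the lowest for Inhba, Mlxipl, Srebf1, Fgfr3, Stat5b and Smoc1, but not for Nrg4 or Tgfbr3. A low M11 was thus not particular to these genes. Ppara, which acts on Fgf21 and Angptl4 in fasting, and Atf4 were among those that did not pass. In LbNOX livers 0 genes of these lists passed with limma or edgeR, while DESeq2 called 1 in the activin list, 1 among other secreted factors and 2 among regulators, of 282 genes it called in all.

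**Figure D4:**
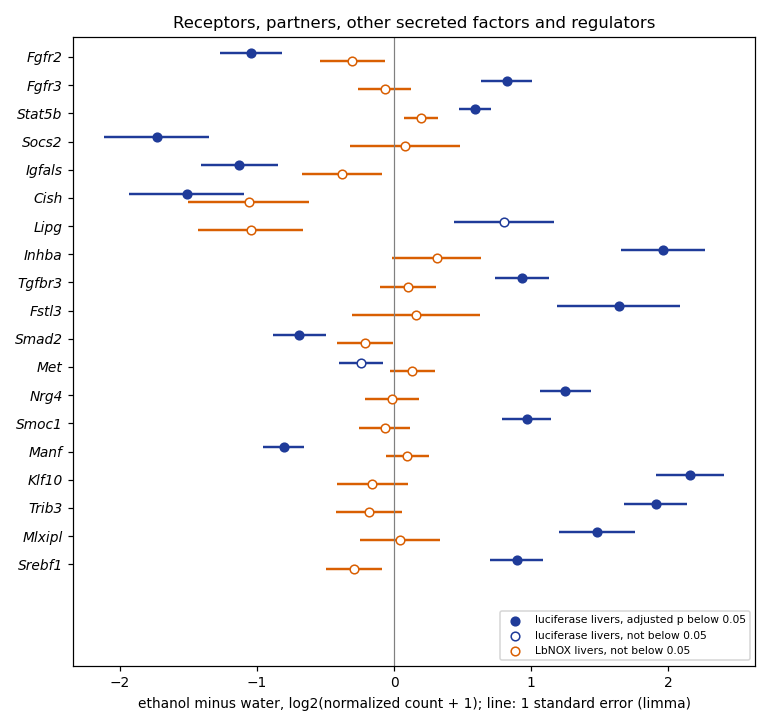
Log2 fold change of ethanol against water in luciferase (blue) and LbNOX (orange) livers for genes of the receptor, partner, secreted factor and regulator lists, with 1 limma standard error. Genes named after their values were seen, Atf3 (−4.70) among them, are not drawn. Filled points have an adjusted p below 0.05. Klf10 (2.16), Inhba (1.96) and Trib3 (1.91) lie farthest right of those drawn in luciferase livers, Socs2 (−1.73) and Cish (−1.51) farthest left.

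Genes whose pattern over the 15 libraries was most like that of a hormone gene were taken from 9506 genes with a mean of 100 or more, by Pearson correlation on the log2 scale. For Fgf21 the highest were Sorcs2 (r = 0.93), Kdelc2 (0.93), Bckdk (0.93) and Dync1li1 (0.92). Sorcs2 reached the mean of 100 only through the luciferase ethanol libraries, with 534 ± 301 there and 9.71 ± 3.86, 3.85 ± 2.35 and 4.22 ± 4.05 with luciferase and water, LbNOX and water, and LbNOX and ethanol. Bckdk, the kinase that restrains breakdown of branched-chain amino acids, averaged 392 ± 62.5 and 731 ± 139 with luciferase after water and ethanol and 369 ± 11.1 and 337 ± 16.3 with LbNOX. For Igfbp1 they were Tat (0.90), tyrosine aminotransferase, Atp1b1 (0.89), a subunit of the sodium pump, and Ddit4 (0.87), a stress-induced inhibitor of mTORC1. Tat shared with Igfbp1 the order of the luciferase ethanol libraries, with 18270 in M11, 10410 in M10 and 7078 in M12. That order is no separate likeness, because Tat was picked by its correlation with Igfbp1 over these same libraries. For Angptl8 they were Fam46a (0.94), Ssfa2 (0.92) and Acsl5 (0.91), the last a long-chain acyl-CoA synthetase. The correlations rest in part on the luciferase ethanol group: over the other 12 libraries they were 0.43 to 0.67 for Kdelc2, Bckdk and Dync1li1 with Fgf21, 0.62 to 0.68 for the Igfbp1 set and 0.63 to 0.79 for the Angptl8 set. That of Sorcs2 was 0.71, over values of 1.26 to 16.4 normalized counts.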

How the data were processed

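Per the labels' protocols, libraries came from the KAPA mRNA HyperPrep kit. Per the submitters' processing notes, the mm10 build was used, with DESeq2 1.30.1 and Salmon 1.5.1, in roles not given in the sources used here. The authors deposited 1 table of values per gene and library (signal), without a stated unit. They are taken as normalized counts because, rescaled by 1 factor per library, all 244950 values came out as whole reads within 0.001 (100%). Libraries held 10610038 to 23714943 such reads over the listed genes.

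limma 3.58.1 (R 4.3.3; trend and robust variances) was run on log2(normalized count + 1) for the 13570 genes that reached 10 normalized counts in 3 or more libraries, as 1 fit of 4 groups with 5 contrasts, Benjamini-Hochberg adjusted p below 0.05. The limma test was tried on simulated data for every contrast but the difference of ethanol effects. Simulated 1.5-fold changes were recovered in 6.58% to 23.7% of genes, 2-fold in 51.7% to 70.7% and 4-fold in 90.9% to 100%. Alternatives were edgeR 4.0.16 and DESeq2 1.42.0 on recovered reads, quantile normalization, plain variances, other filters (none, 50), pseudocounts (0.5, 10), only the groups compared, no M3 and M8, and each library left out. Columns were put in groups by the group names in the table's header, which gives no replicate numbers, so M1 to M15 are column names not tied to single samples.

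The hormone genes and lists were chosen with earlier results of these data known. Named besides the hormone genes were, per list, up to 4 genes that passed in luciferase livers or in the difference of ethanol effects by smallest p, or the gene of smallest p where none passed, and the genes of most similar pattern (5 for Fgf21, of which 1 is not reported here, and 3 for others that passed). Intervals are for differences of group means and rest on 1 variance per gene, shared by the 4 groups. The spread itself differed by group: for Fgf21 the log2 SD ran from 0.258 (luciferase, water) to 0.797 (luciferase, ethanol). In the table, 23 gene names read as dates.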

Additional observations from a re-analysis of the deposited data

Results flagged for a closer look

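The effect of ethanol on Fgf21 differed between the constructs by its own test, at −2.23 on the log2 scale (LbNOX minus luciferase, adjusted p = 0.0382 with limma). All 3 luciferase ethanol libraries lay above every water library, and 2 of the 3 LbNOX ethanol libraries lay below every water library. A check for a single library standing apart from its group was run for the 9 hormone genes in the water group of each construct, 18 checks in all, and marked 0. The ethanol groups, of 3 libraries each, were too small for it and were not checked.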

How the results depend on the processing

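The rises of Fgf21 and Igfbp1 in luciferase livers and the lower Fgf21 with LbNOX after ethanol passed in all 15 omissions of a library and all 10 other alternatives. Hormone genes lower with LbNOX after ethanol numbered 1 in place of 2 with plain variances, with no filter, with only the groups compared and without M3 and M8. They numbered 1 to 2 over omissions of a library. The difference of ethanol effects gave 0 in place of 1 with plain variances and without M3 and M8, and 0 to 1 over omissions. In luciferase livers 3 became 2, with the loss of Angptl8, with plain variances, with only the groups compared and without M3 and M8, and omissions gave 2 to 3. DESeq2 called 3 after ethanol between constructs, Igfbp1 being the third. The cause was not tested.

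Counts over all genes moved more. In luciferase livers 1052 became 1621 with DESeq2, 611 with only the groups compared and 446 without M10. In LbNOX livers 1 became 282 with DESeq2, 0 with plain variances, 2 with only the groups compared, 142 without M3 and M8 and 0 to 28 (without M14) over omissions. After water 0 became 18 with DESeq2, 2 without M3 and M8 and 1 without M8. After ethanol 822 became 1349 with DESeq2 and 299 without M10. For the difference 227 became 633 with DESeq2, 395 without M3 and M8, 64 without M10 and 403 without M8. Groups of 3 limit the precision of every ethanol value. No paired analysis was possible because the table's columns carry no replicate numbers shared between groups.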
